A study of Mus musculus with 16 samples.

Results

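The 9 genes described here are grouped under interleukin-6 (IL-6) family receptors and STAT3 signalling. They include the receptor genes Il6st, Osmr, Lifr and Il6ra, the transcription factor gene Stat3, its feedback inhibitor Socs3 and the acute-phase gene Saa3. The group also holds Il4ra and Il1r1, which are receptor genes of other interleukins, outside the IL-6 family. The genes were taken by symbol from a table of 17715 entries, and all 9 were found, in 1 row each. RNA had been sequenced from endothelial cells, the lining of blood vessels, that were sorted by FACS from the lungs of female C57BL/6N mice. The 4 groups held 4 libraries each: wild-type mice at d0, mice bearing a primary tumour at d15, mice whose tumour had been resected at d22, and mice bearing metastases at d36. The tumour came from Lewis lung carcinoma (LLC) cells, a transplantable mouse lung tumour line, placed under the skin. The d0 group differs from each later group in the tumour and also in the time point, so these cannot be told apart. The d22 group differs from d0 and d15 in the resection surgery as well, which cannot be told apart from them either. If the tumour of the d36 mice had been resected before, the same holds for d36 against d0 and d15. The labels used here state neither the age of the mice nor the antibodies of the sort.

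Cytokines of the IL-6 family bind a receptor chain of their own and then the shared chain gp130, the product of Il6st. Janus kinases on these chains phosphorylate STAT3, which moves to the nucleus and switches on target genes, among them Socs3, whose product blocks the receptor in a feedback loop. In endothelium the pathway is known for the acute-phase response to circulating cytokines. Because the RNA came from bulk sorted cells, fewer cells of a type and less RNA per cell cannot be told apart.

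Values are RPKM, reads per kilobase of transcript scaled to the size of the library, so levels of different genes are compared per length. Approximate depth, read from the smallest steps of the values, was 93.2 to 152 M reads. The 13 pan-endothelial markers summed to between 7370 and 12090 RPKM in every library, which fits the label of the cells. Within that list 3 genes fell at d36 against d0 (Tie1, Egfl7 and Esam) and 1 rose (Ramp2, 4017 ± 1907 against 1637 ± 340.2 RPKM, SD, n = 4 each). In the test given below, 24% of all entries were called in this comparison, 16.6% of them higher than at d0 as a share of all entries. The list's median log2 fold change at d36 was -0.30, against 0.04 over all entries. At d15 against d0 the 1 call in the list was Vwf, higher (97.5 ± 26.5 against 44.0 ± 3.43 RPKM), where 0.608% of all entries were called higher. At d22 against d0, 2 were called higher, Vwf (71.2 RPKM) and Ramp2 (3958 RPKM), where 8.09% of all entries were. Markers of other cells were also present, and they moved with the time points. The 9 pan-leukocyte genes in the table summed to 46.1 to 142 RPKM at d36 against 32.2 to 40.1 at d0. Of the 7 that were tested 6 rose, where 16.6% of all entries were called higher. These 6 averaged under 1 RPKM at d0, d15 and d22, so they met the filter given below largely through d36. Their calls are therefore no independent support for a difference. Rhox5, taken here as a gene of the tumour line, stood at 11.1 to 148 RPKM at d36 and at 0 to 0.721 in the other 12 libraries. One library of d36, replicate 1, names day 29 in its title and column header, while its time point field reads d36, which was followed.

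In the lung endothelium of mice with a primary tumour (d15), the receptor genes Osmr and Il4ra were higher than at d0, by 2.46 and 1.83 times. After resection (d22) Il4ra was back near its d0 level and Il1r1 alone passed the test against d0. With metastases (d36) Stat3, Socs3, Osmr, Il1r1 and Saa3 rose, and Saa3 had been at or near 0 in the other groups. Lifr and Il6st did not pass in any of the 6 comparisons of the fit across all groups. The comparisons with d0 share the d0 libraries. The test was limma on log2(RPKM + 1) across the 14303 entries that reached 1 RPKM in 4 or more of the 16 libraries, and a gene was called at a Benjamini-Hochberg adjusted p under 0.05. Of the 9 genes, 8 passed that filter. Il6ra was too low, and Saa3 passed only through its 4 d36 libraries, so its call at d36 is no independent support for a difference.

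Read against all tested entries, 2 of the 8 tested genes were called higher at d15 against d0, where 1.18% of entries were called in either direction and 0.608% higher. Another count is that of genes whose 4 libraries at d15 all lay above the 4 at d0: 7 of the 8, every tested gene but Saa3, against 5.34% of all entries. The median log2 fold change of the 8 was 0.66, against -0.02 over all entries. At d22 against d0 there was 1 call, where 15.2% of entries were called and 8.09% higher, so that share is near the background. The libraries were separate for 1 gene, Il1r1, against 14.2% of entries. The median was 0.34 against 0.02. At d36 against d0, 5 were called, where 24% of entries were called and 16.6% higher. In 3 of these, Stat3, Il1r1 and Saa3, the libraries of the groups did not overlap, against 13.9% of entries. Without Saa3, 4 of 7 were called and 2 of 7 were separate. The median of the 8, Saa3 included, was 0.85 against 0.04. Without Saa3 the middle gene of the 7 was Stat3, at 0.76.

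Between the later groups there were fewer calls. Il4ra was the 1 gene called at d22 against d15, and it was lower (3.06% of entries were called, 1.06% lower). In this comparison the libraries were separate for Il4ra and Il6st, both lower at d22, against 4.8% of entries. Saa3 was the 1 call at d36 against d15 (11.5% called, 9.87% higher) and the 1 gene with separate libraries (8.94% of entries were separate in that direction). Since the filter fixed this, nothing is read from it, and 0 of the other 7 genes were called in limma, with 4 at an unadjusted p under 0.05. Stat3 and Saa3 were the 2 calls at d36 against d22 (11.8% called, 8.73% higher), and their libraries were separate (9.49% of entries were). Without Saa3 that is 1 of 7. The moderated F test, which takes the 3 contrasts with d0 together, called Stat3, Osmr, Il4ra, Il1r1 and Saa3, 5 of the 8 and 4 of 7 without Saa3, where it called 28.7% of entries. Socs3, Il6st and Lifr did not pass the F test (adjusted p = 0.0689, 0.0602 and 0.0561 in limma).

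**Figure D1:**
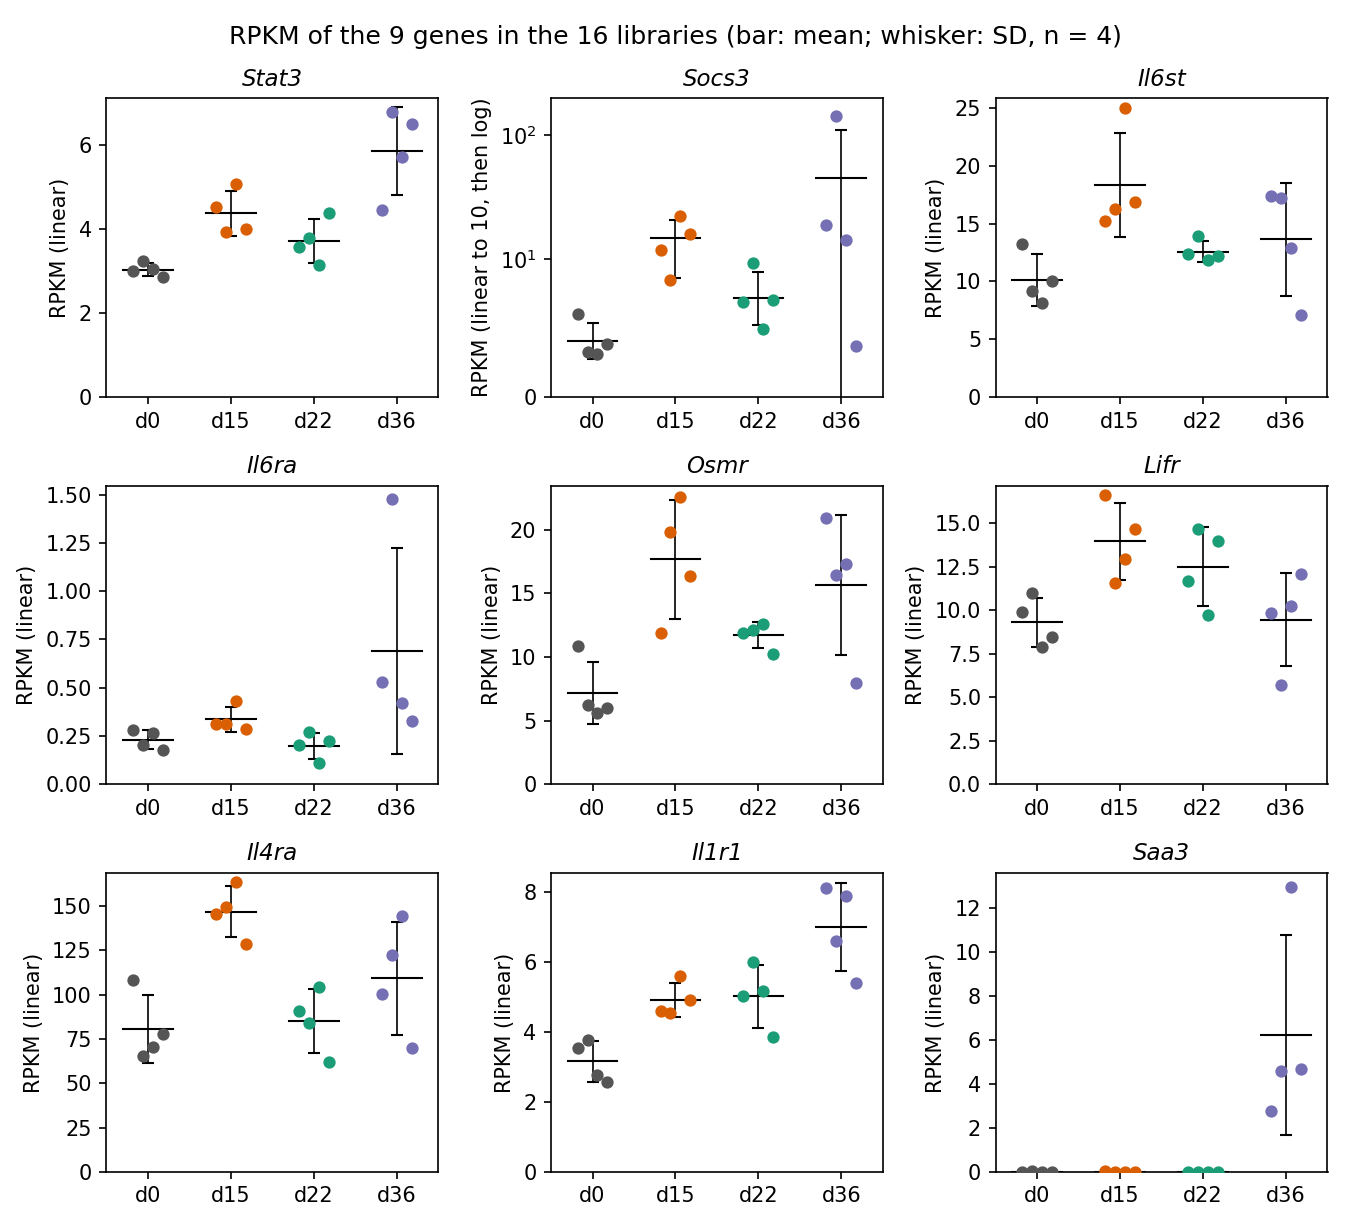
RPKM (y axis) of each of the 9 genes in the 16 libraries by time point (x axis). Points are libraries, the bar is the mean and the whisker the SD of 4 libraries, clipped at 0. The Socs3 axis is linear to 10 RPKM and logarithmic above. The 4 d15 points of Il4ra and of Osmr lie above all 4 d0 points, and 1 d36 library of Socs3 reaches 143 RPKM.

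Levels at d0 differed widely between the genes. Il4ra stood at 80.5 ± 19.2 RPKM (SD, n = 4), Il6st at 10.1 ± 2.23, Lifr at 9.31 ± 1.42 and Osmr at 7.19 ± 2.46. Then came Socs3 at 4.06 ± 1.34, Il1r1 at 3.16 ± 0.586 and Stat3 at 3.03 ± 0.156. Il6ra, at 0.232 ± 0.0484, and Saa3, at 0.00882 ± 0.0176, were lowest. Apart from the steps below Il4ra and above and below Il6ra, neighbours in this order had overlapping libraries. Per length, the shared chain Il6st thus stood far above the IL-6 binding chain Il6ra at d0.

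Il6st, which codes for gp130, lies at chr13:112464070-112510086 on the plus strand (GENCODE annotation of GRCm38, the assembly of build mm10, which is also the build of all positions below). Its levels were 13.3, 9.14, 8.13 and 10.0 RPKM at d0, 15.2, 16.3, 25.0 and 16.8 at d15 with the tumour, 12.4, 13.9, 11.8 and 12.2 at d22 after resection, and 17.4, 17.2, 12.9 and 7.06 at d36. All d15 libraries lay above all d0 libraries, while at d36 the group ran from below to above the d0 range. The log2 fold change was 0.79 ± 0.22 at d15 against d0 (SE, limma adjusted p = 0.0836) and 0.34 ± 0.22 at d36 (adjusted p = 0.277). When d15 and d0 alone were fitted, Il6st passed (adjusted p = 0.0259), in a fit that called 3.34% of entries.

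Osmr codes for the oncostatin M receptor, which pairs with gp130, and lies at chr15:6813577-6874969 on the minus strand. It had 10.9, 6.26, 5.63 and 6.00 RPKM at d0, 11.9, 19.9, 22.6 and 16.4 at d15 with the tumour, 11.9, 12.2, 12.6 and 10.3 at d22 after resection, and 20.9, 16.5, 17.3 and 7.95 at d36. The highest d0 library, replicate 1, came close to the lowest d15 library and overlapped with the lowest library of d22 and of d36. Osmr rose at d15 against d0, with a log2 fold change of 1.20 ± 0.25 (limma adjusted p = 0.0297), and at d36 against d0, by 0.99 ± 0.25 (adjusted p = 0.00868). At d22 the change of 0.68 ± 0.25 did not pass (adjusted p = 0.0743). The d36 call held in all 8 fits that each left out 1 library of the groups compared. The d15 call held in 2 of 8, without d0 replicate 1 or d15 replicate 3, and was lost without any other, with adjusted p between 0.0646 and 0.102.

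Lifr, the receptor of leukaemia inhibitory factor and the other common partner of gp130, lies near Osmr at chr15:7090614-7197489 on the plus strand. Its values were 9.91, 11.02, 7.88 and 8.44 RPKM at d0, 16.6, 11.6, 12.9 and 14.7 at d15 with the tumour, 11.7, 14.7, 9.71 and 14.0 at d22 after resection, and 9.87, 5.70, 10.3 and 12.1 at d36. The d15 libraries all lay above those of d0, and the d36 libraries were spread on both sides of them. The log2 fold change was 0.54 ± 0.18 at d15 (limma adjusted p = 0.156), 0.38 ± 0.18 at d22 (adjusted p = 0.173) and -0.01 ± 0.18 at d36 (adjusted p = 0.977), all against d0. At d36 against d15 the value was -0.54 ± 0.18 (adjusted p = 0.0650).

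Il6ra codes for the chain that binds IL-6 itself and lies at chr3:89864059-89913196 on the minus strand. Its levels were low throughout: 0.279, 0.205, 0.266 and 0.178 RPKM at d0, 0.314, 0.314, 0.433 and 0.284 at d15 with the tumour, 0.204, 0.269, 0.109 and 0.223 at d22 after resection, and 0.531, 1.48, 0.423 and 0.328 at d36. Every d15 and every d36 library exceeded every d0 library, and d36 replicate 7 stood highest. Since the gene failed the filter, its RPKM was compared with exact two-sided permutation tests, for which 0.0286 is the smallest p that 4 against 4 libraries allow. The mean was 1.45 times that of d0 at d15 and 2.98 times at d36 (each exact p = 0.0286, 0.0429 adjusted over the 6 comparisons). It was 0.867 times that of d0 at d22 (exact p = 0.543). In limma without a filter the d36 change against d0 was 0.41 ± 0.14 on the log2 scale (adjusted p = 0.0456) and the d15 change 0.12 ± 0.14 (adjusted p = 0.783).

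Il4ra, the receptor chain for interleukin-4 and interleukin-13, signals mainly through STAT6. It lies at chr7:125552120-125579474 on the plus strand. With 108, 65.4, 70.6 and 77.7 RPKM at d0, 146, 149, 164 and 129 at d15 with the tumour, 90.8, 83.8, 105 and 61.8 at d22 after resection, and 100.3, 122, 144 and 70.0 at d36, it had the highest level of the 9 genes in 15 of 16 libraries. The 4 d15 libraries lay above all 8 of d0 and d22. Il4ra rose at d15 against d0 (0.88 ± 0.21, limma adjusted p = 0.0461) and fell at d22 against d15 (-0.80 ± 0.21, adjusted p = 0.0449). The d15 call held in 1 of 8 fits with 1 library left out, that without d0 replicate 1, with adjusted p of 0.0749 to 0.148 in the others. The call at d22 against d15 held in 0 of 8 (adjusted p 0.0535 to 0.146), although its direction was the same in each. At d36 against d0 the change was 0.41 ± 0.21 (adjusted p = 0.154).

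Il1r1 is the signalling receptor of interleukin-1, which acts through NF-kB and not through gp130, and lies at chr1:40225080-40317257 on the plus strand. It had 3.54, 3.77, 2.78 and 2.55 RPKM at d0, 4.60, 4.54, 5.58 and 4.91 at d15 with the tumour, 5.02, 6.01, 5.17 and 3.84 at d22 after resection, and 8.11, 6.58, 7.88 and 5.39 at d36. In each later group all libraries lay above all d0 libraries, though by little for d22 replicate 6. The log2 fold change against d0 was 0.51 ± 0.14 at d15 (limma adjusted p = 0.0831), 0.53 ± 0.14 at d22 (adjusted p = 0.0198) and 0.94 ± 0.14 at d36 (adjusted p = 0.000321). At d22 it differed from d15 by 0.02 ± 0.14 (adjusted p = 0.969). The d36 call held whichever library was left out. The d22 call was lost without d0 replicate 3, d0 replicate 4 or d22 replicate 4 (adjusted p = 0.0594, 0.0691 and 0.0636).

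Stat3, the transcription factor itself, lies at chr11:100885098-100939540 on the minus strand. Its values were close together at d0, with 2.99, 3.23, 3.05 and 2.85 RPKM. They were 4.52, 3.92, 5.07 and 4.00 at d15 with the tumour, 3.56, 3.78, 3.14 and 4.37 at d22 after resection, and 4.45, 6.79, 5.71 and 6.51 at d36. All d15 and d36 libraries exceeded all d0 libraries, and the d36 libraries also exceeded those of d22. Stat3 rose at d36 against d0 (0.76 ± 0.12, limma adjusted p = 0.000522), a ratio of means of 1.93. It also rose at d36 against d22 (0.54 ± 0.12, adjusted p = 0.0105). The changes at d15 (0.41 ± 0.12, adjusted p = 0.105) and d22 (0.22 ± 0.12, adjusted p = 0.246) against d0 did not pass. Both d36 calls held in 8 of 8 fits with 1 library left out. With only d36 and d22 in the fit, the second was lost (adjusted p = 0.0700). These are RNA levels, and phosphorylation of STAT3 was not measured.

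Socs3, the feedback inhibitor that STAT3 switches on, lies at chr11:117966079-117970047 on the minus strand. It had 6.02, 3.27, 3.11 and 3.84 RPKM at d0, 11.8, 8.50, 22.5 and 16.02 at d15 with the tumour, 6.92, 9.69, 4.95 and 7.05 at d22 after resection, and 18.8, 143, 14.2 and 3.66 at d36. Every d15 library lay above every d0 library. At d36 replicate 7 stood far above the rest, and replicate 9 lay inside the d0 range. Socs3 was called at d36 against d0, with a log2 fold change of 2.10 ± 0.65 (limma adjusted p = 0.0276). Without d36 replicate 7 the change was 1.18 (adjusted p = 0.0458). The call was lost without d0 replicate 2, 3 or 4 or d36 replicate 1 (adjusted p = 0.0593, 0.0673, 0.0584 and 0.0531), and when d36 and d0 alone were fitted (adjusted p = 0.110). At d15 the change of 1.59 ± 0.65 did not pass in the fit of all groups (adjusted p = 0.231). It passed when d15 and d0 alone were fitted (1.59 ± 0.25, adjusted p = 0.00640).

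Stretches before the starts of Socs3, Stat3 and Saa3 are printed to compare a match to the STAT palindrome, found in 1 of the 9 genes, with its absence in the factor's own gene and in the acute-phase gene. They are RefSeq sequence of GRCm38.p6, on the minus strand, which is the strand of all 3 genes, and stop at the first base that a GENCODE exon covers. The RefSeq start of Socs3 lies inside the GENCODE span given above, so its stretch and the match are before the RefSeq start but within the GENCODE gene, outside its exons. The Socs3 stretch is chr11:117969452-117969616 (165 bases), that of Stat3 is chr11:100939541-100939790 (250 bases) and that of Saa3 is chr7:46715701-46715926 (226 bases). Capitals mark the match.
Socs3: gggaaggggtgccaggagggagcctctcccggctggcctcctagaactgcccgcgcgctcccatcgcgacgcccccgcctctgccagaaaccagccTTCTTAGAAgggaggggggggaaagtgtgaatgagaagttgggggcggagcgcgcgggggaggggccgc
Stat3: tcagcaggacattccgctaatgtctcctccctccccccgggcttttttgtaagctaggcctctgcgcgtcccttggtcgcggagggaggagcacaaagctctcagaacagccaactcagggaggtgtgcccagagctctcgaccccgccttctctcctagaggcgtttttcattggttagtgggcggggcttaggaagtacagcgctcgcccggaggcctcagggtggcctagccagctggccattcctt
Saa3: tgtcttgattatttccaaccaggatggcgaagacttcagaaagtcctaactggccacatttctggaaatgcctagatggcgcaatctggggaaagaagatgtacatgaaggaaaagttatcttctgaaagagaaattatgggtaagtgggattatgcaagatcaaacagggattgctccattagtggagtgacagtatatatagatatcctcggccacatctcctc
The letters TTCNNNGAA, searched on both strands from 250 bases before to 50 after each RefSeq start, matched in Socs3 alone of the 9 genes, as TTCTTAGAA at chr11:117969512-117969520, 154 bases before the start. Of 32851 such windows of all genes, 8.30% held a match. The form with 1 more free base between the arms matched in 0 of the 9 genes and in 6.95% of windows. A palindrome reads the same on both strands, so the strands count once. A match describes the letters only.

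Saa3, an acute-phase protein of the serum amyloid A family that mouse tissues outside the liver make, lies at chr7:46711998-46715700 on the minus strand. It was listed at 0 in 3 of 4 d0 libraries and at 0.0353 RPKM in the other, at 0 in 3 of 4 d15 libraries and at 0.0403 in the other, and at 0 in all 4 of d22. At d36 it had 2.75, 4.57, 12.9 and 4.66 RPKM. The groups are fully apart. On the log2(RPKM + 1) scale, which understates the change of a gene near 0, d36 exceeded d0 by 2.66 ± 0.25 (limma adjusted p = 7.51e-06). Leaving out a d36 library takes Saa3 below the filter, so no such fit includes it. Its highest level, in d36 replicate 8, stood in the library with the highest pan-leukocyte sum (142 RPKM). In replicate 9, where Saa3 had 4.66 RPKM, that sum (46.1 RPKM) and Rhox5 (11.1 RPKM) were the lowest of the group. The part of leukocyte or tumour RNA in the Saa3 values was not tested.

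**Figure D2:**
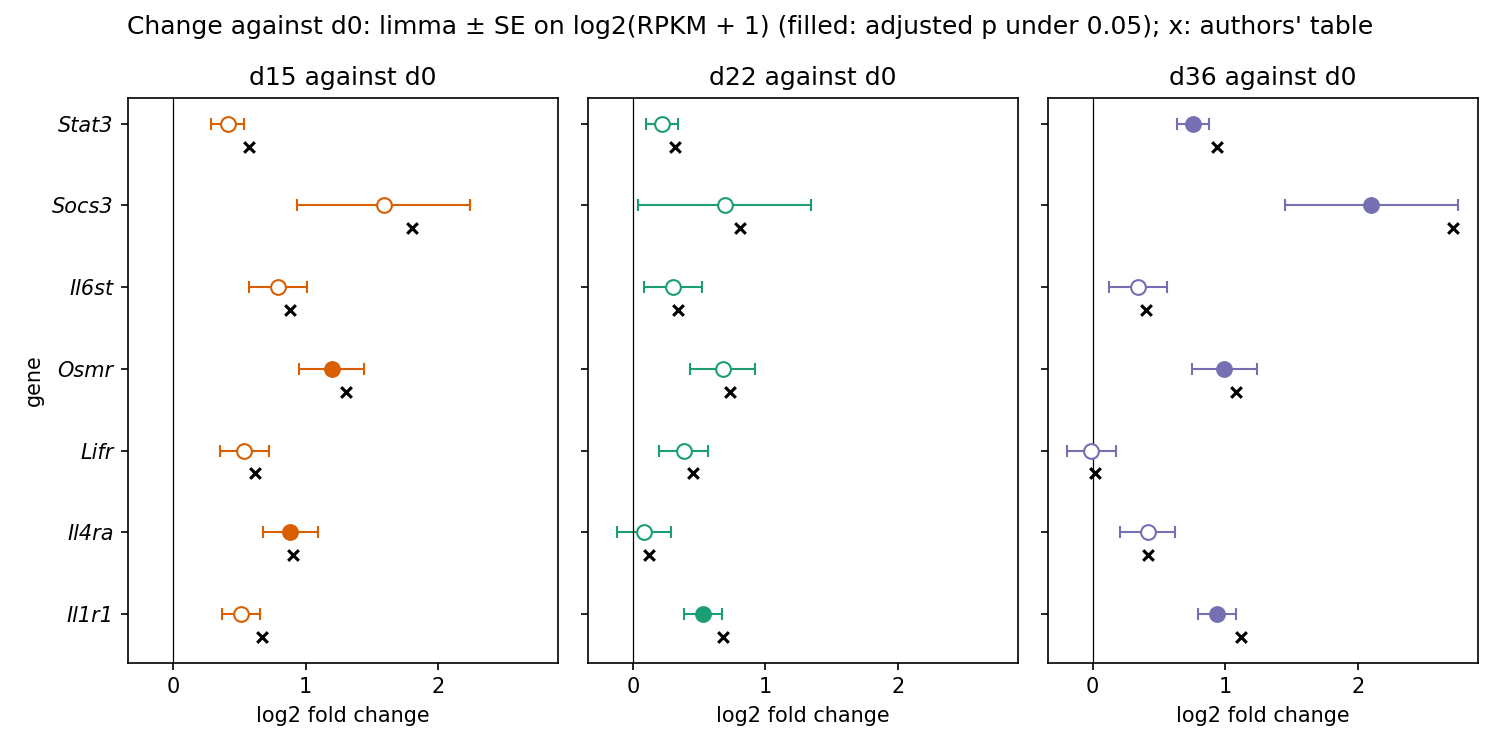
Log2 fold change (x axis) of 7 genes (rows) at d15, d22 and d36 against d0. Circles are limma estimates with SE from 4 libraries a group, filled where the adjusted p is under 0.05, and crosses are the authors' deposited values. All d15 estimates lie right of 0, and at d36 Lifr sits at -0.01. Il6ra is not drawn, since it failed the filter, nor is Saa3, which was near 0 at d0.

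The authors' deposited table gives its own fold changes and adjusted p-values for d15, d22 and d36, with no comparison group named. Its folds follow the ratio of mean RPKM to d0 (r = 0.997 to 0.999 across genes, which are not independent replicates). The authors' deposited table has 7 of the 8 genes with a p-value higher at d15, all but Il6ra, where 7.89% of its entries were called and 5.07% higher. For d22 the authors' deposited table calls 4 of 8, Socs3, Osmr, Lifr and Il1r1 (25.6% called, 16.5% higher). For d36 the authors' deposited table calls 5 of 8, Stat3, Il6ra, Osmr, Il1r1 and Saa3 (22.2% called, 16.9% higher). Socs3 has no adjusted p for d36 in the authors' deposited table, beside a log2 fold change of 2.72. For Lifr at d36 the authors' deposited table gives 0.02 with an adjusted p of 0.969.

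Fits that weigh libraries otherwise moved the d15 count most. With only d15 and d0 in the fit, 5 genes passed, Socs3, Il6st, Osmr, Il4ra and Il1r1, where 3.34% of entries were called and 1.83% higher. With array weights, which give less weight to libraries that deviate more, 7 passed, the same 5 and Stat3 and Lifr, where 5.15% of entries were called and 2.59% higher. For d22 against d0, the fit of those groups alone called 3 (Socs3, Osmr and Il1r1), where 22.7% of entries were called and 12.5% higher. At d36 against d0 that kind of fit called 4 (Stat3, Osmr, Il1r1 and Saa3, with 14.3% of entries called and 10.7% higher). At d22 against d15 it called 2, Socs3 and Il4ra, both lower (5.54% called, 1.75% lower). It called Saa3 alone at d36 against d15 (2.8% called, 2.56% higher) and at d36 against d22 (2.91% called, 2.51% higher). Array weights called 3 at d22 (Osmr, Lifr and Il1r1, with 27.6% of entries called and 15.4% higher) and 7 at d36, all but Lifr (39.8% called, 25.2% higher), against d0. At d22 against d15 they called Il4ra, lower (8.96% called, 3% lower). At d36 against d15 they called Lifr, lower, and Il1r1 and Saa3, higher (20% called). At d36 against d22 they called 6, all but Il6st and Lifr (28.1% called, 17.8% higher).

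Libraries of a group differed together in several of the genes. Leaving Saa3 aside, d15 replicate 5 was the highest of its group in 7 of 8 genes, all but Lifr. Replicate 9 of d36 was the lowest of its group in 6 of 8, and the highest in Lifr. Replicate 1 of d0 was the highest in 5 of 8. Without d36 replicate 9, Saa3 is not tested, and 6 of the other 7 genes passed at d36 against d0, where 35% of all entries were called, and 6 at d36 against d22, where 26.2% were. With that library the counts over the same 7 genes are 4 and 1. Its array weight was the lowest of all, 0.221. Other markers also differed at d15. The 2 erythroid genes in the table summed to 4.26 to 19.3 RPKM at d15 against 0.655 to 1.73 at d0, with no overlap, and Hba-a1 rose (2.06 ± 0.46, limma adjusted p = 0.0387). The summed macrophage and monocyte markers were 47.9 to 135 RPKM at d15 against 25.7 to 48.9 at d0, most of it Lyz2. Lyz2 averaged 72.0 RPKM at d15 against 33.3 at d0, Cd68 2.13 against 1.47 and Ly6c2 0.877 against 0.615. Chi3l3 was lower, at 0.820 against 1.39 RPKM. The macrophage genes Emr1, Marco, Csf1r and Mpeg1 reached at most 0.152 RPKM at d15 and 0.275 at d0. Of the 5 genes of this list that were tested, 0 were called at d15, where 1.18% of all entries were. Lung epithelial markers summed to 1286 to 3455 RPKM at d15 against 811 to 1994 at d0, and were highest in d15 replicates 3 and 4, not in replicate 5. Most of that sum was Sftpc and Scgb1a1, and neither was called. Of the 10 tested genes of the epithelial list 0 were called higher at d15. Hopx was called lower (12.1 against 21.7 RPKM, limma adjusted p = 0.0472), and Ager was at 22.9 against 20.5 RPKM with no call. Pan-leukocyte markers were 31.8 to 38.9 RPKM at d15 against 32.2 to 40.1 at d0. The part of erythroid, macrophage or epithelial RNA in the d15 values was not tested.

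At d36 the order of libraries differed between genes. Socs3 and Il6ra were highest in replicate 7, as was the neutrophil sum (48.4 RPKM, against 27.8 in replicate 8, 2.74 in replicate 1 and 1.17 in replicate 9, and 0.801 to 1.79 at d0). Saa3 and the pan-leukocyte sum were highest in replicate 8. Rhox5 was highest in replicate 1 (148 RPKM), where Osmr, Il6st and Il1r1 were also highest. The fibroblast and mural sum was highest in replicate 1 too (55.7 RPKM) and lowest in replicate 9 (11.2 RPKM), where Osmr, Il6st and Il1r1 were lowest, against 9.97 to 14.7 RPKM at d0. Lum, a fibroblast gene, rose at d36 (15.6 ± 11.6 against 0.711 ± 0.178 RPKM, SD, n = 4 each, limma adjusted p = 0.00168), as did the B cell genes Cd79a and Cd79b. These genes averaged under 1 RPKM at d0, so they may have met the filter largely through d36. The 1 mesothelial gene in the table reached 10.7 RPKM at d36, against at most 0.268 at d0. Stat3 was 6.51 RPKM in replicate 9, above the 4.45 of replicate 1. The part of leukocyte, fibroblast, mesothelial or tumour RNA in the d36 values was not tested. Without replicate 1, the library whose title names day 29, Stat3, Osmr and Il1r1 passed against d0, 3 of 7 with Saa3 not tested, where 17.1% of all entries were called. With it 4 of the same 7 passed, and Socs3 was the 1 lost.

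**Figure D3:**
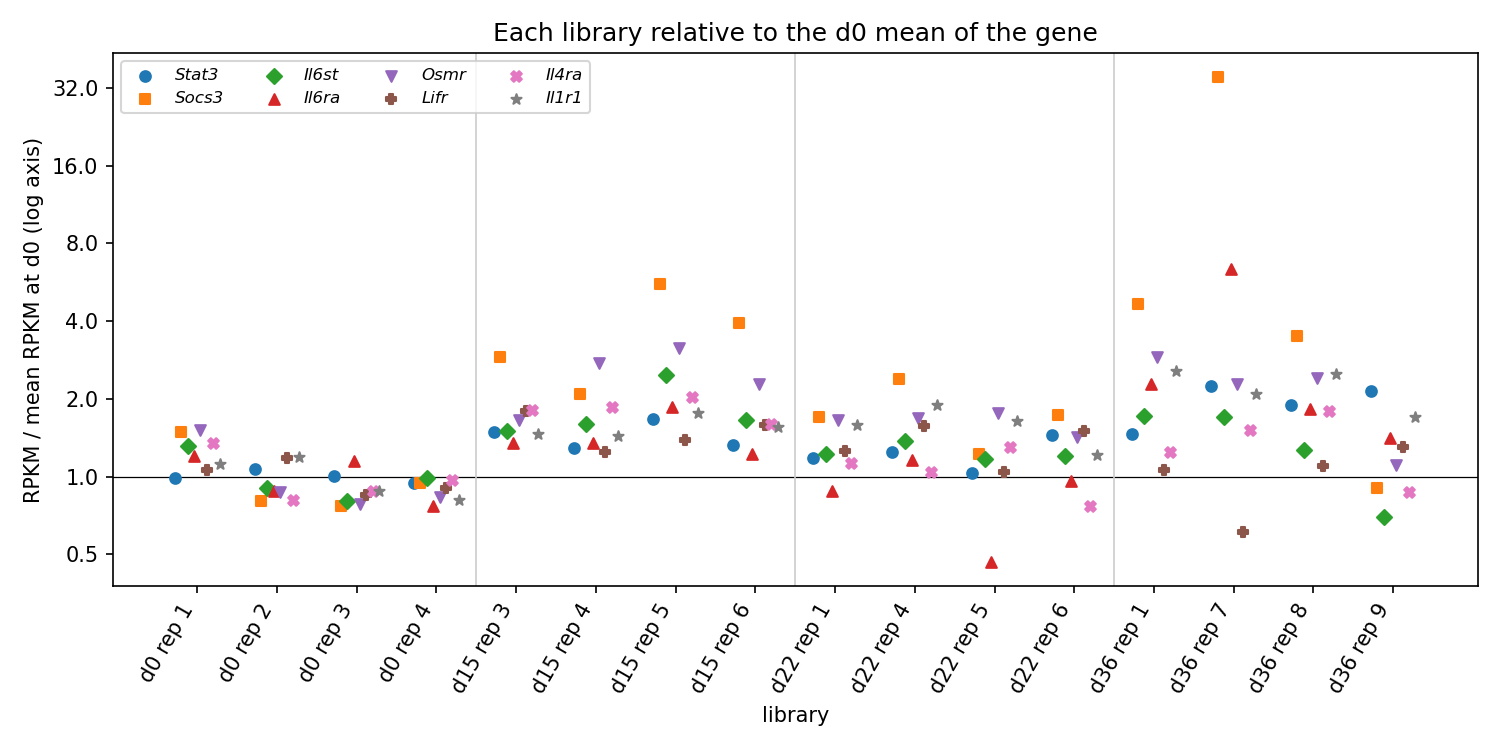
RPKM of 8 genes in each of the 16 libraries (x axis) divided by the mean of the gene at d0 (y axis, logarithmic). Each marker is 1 gene in 1 library. All 8 genes exceed 1 in each d15 library, and in d36 replicate 9 Socs3, Il6st and Il4ra lie below 1.

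Over the 12 libraries of d0, d15 and d22, log2(RPKM + 1) of Socs3 and Il6st correlated at r = 0.95 and that of Il6st and Osmr at r = 0.93. With the 4 d36 libraries the values were 0.73 and 0.88. Lifr correlated with Stat3 at r = 0.82 over the 12 libraries and at -0.02 over all 16. With the group means removed, r over the 16 libraries was 0.77 for Socs3 and Il6st and 0.88 for Il6st and Osmr. For Lifr and Stat3 it was 0.065. These are descriptions across libraries that share their groups, with no test.

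The entries most like each gene over the 16 libraries, among 8361 or 8362 with a symbol and a mean of at least 2 RPKM, were chosen by Pearson r of log2(RPKM + 1). For Socs3 these were Gadd45g (r = 0.96), Bcl3 (0.94) and Sbno2 (0.94), with 0.94, 0.89 and 0.92 over the 12 libraries without d36. Il6ra was also most like Gadd45g (0.96), then Snhg12 (0.94) and Zfp36 (0.92). Stat3 was most like Pdcd4 (0.94), Dnajb9 (0.91) and Pnrc1 (0.88). For Il6st the order was Epas1 (0.90), Osmr (0.88) and Cdc42ep4 (0.87), and for Osmr it was Il6st (0.88), Lepr (0.87) and Bhlhe40 (0.87). Il4ra followed Tmem252 (0.90), Slc3a2 (0.89) and Wars (0.89), and Il1r1 followed Utp6 (0.94), Lamp2 (0.93) and Thbs1 (0.91). Lifr had the weakest likeness, to Gm7710 (0.79), Cadm1 (0.79) and Plcb1 (0.78). For Saa3 the entries were Slpi (0.94), Btg1 (0.93) and the leukocyte gene Coro1a (0.92), and their r without d36 was -0.45, -0.38 and -0.19, where Saa3 is near 0.

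Of 12 listed ligand genes, 5 are in the table used here, and Il6, Il11, Lif and Osm failed the filter. Il6 was at 0, 0.0320, 0 and 0.0164 RPKM at d0, 0.155, 0.130, 0.265 and 0.405 at d15 with the tumour, 0.410, 0.670, 0.365 and 0.135 at d22 after resection, and 0.808, 7.44, 9.12 and 0.259 at d36. Every library of each later group lay above all d0 libraries. The exact two-sided permutation p was the smallest possible, 0.0286, in each of the 3 comparisons, and 0.0686 adjusted over 12 tests of 4 ligands. Il11 averaged 2.09 ± 1.54 RPKM at d36 against 0.0516 ± 0.0259 at d0, and Osm, the ligand of Osmr, 1.46 ± 1.58 against 0.00931 ± 0.0186 (SD, n = 4 each). Both had exact permutation p = 0.0286, 0.0686 adjusted over the 12. Lif averaged 2.92 ± 2.40 RPKM at d36 against 0.0872 ± 0.0506 at d0 (exact p = 0.0857). In d36 replicate 9 these 4 ligands were at 0.0552 to 0.259 RPKM. Clcf1, the 1 ligand gene tested in limma, averaged 6.05 ± 0.505 RPKM in d0 libraries and 4.598, 4.57 and 4.56 in those of d15, d22 and d36, with no call.

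Other genes of the pathway were counted from lists. Of 5 tested IL-6 family receptor genes, Osmr was the 1 that rose at d15, where 0.608% of all entries were called higher, and at d36, where 16.6% were. The 2 that are not described above, Il11ra1 and Il27ra, were at 2.69 ± 0.290 and 1.74 ± 0.322 RPKM at d0 and were not called at d15, d22 or d36. Among 11 tested JAK, STAT and associated genes, 0 were called in limma at d15, 2 rose at d22 and 2 at d36, where 8.09% and 16.6% of all entries were called higher. At d36 the share of the list is near that background. Jak2, a kinase bound to gp130, rose at d22 (0.51 ± 0.12, limma adjusted p = 0.0110). Ptpn11, the phosphatase SHP2 that binds gp130, rose at d22 (0.51 ± 0.14, adjusted p = 0.0237) and d36 (0.76 ± 0.14, adjusted p = 0.00150), besides Stat3 at d36. Jak1, another kinase bound to gp130, stood at 35.7 ± 5.72 RPKM at d0 and at 47.0, 45.0 and 45.7 at d15, d22 and d36, with no call.

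Of 11 tested inhibitors of the pathway, 0 were called in limma at d15, 1 rose at d22 and 4 rose at d36, where 8.09% and 16.6% of all entries were called higher. At d22 the share is near that background. Socs2, of the same family as Socs3, rose at d22 (0.51 ± 0.13, limma adjusted p = 0.0184). At d36, beside Socs3, the phosphatase gene Ptpn2 (0.60 ± 0.12, adjusted p = 0.00274), Pias2 (0.49 ± 0.11, adjusted p = 0.00416) and Socs6 (0.39 ± 0.13, adjusted p = 0.0391) rose. Socs6 was near the filter of 1 RPKM, at 1.32 ± 0.199 RPKM at d36 against 0.776 ± 0.229 at d0 (SD, n = 4 each). The median over the list was 0.21 at d36, against 0.04 over all entries.

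Of 23 tested STAT3 response and acute-phase genes, 1 rose at d15, 1 at d22 and 12 at d36, where 1 fell, all against d0. Over all entries 0.608%, 8.09% and 16.6% were called higher at d15, d22 and d36, so the share of the list at d22 is below the background. Genes that pass the filter only through d36, as Saa3 does, were not taken out of these counts. The d36 share is therefore no independent support for a rise. The list median was 0.52 at d15, 0.17 at d22 and 0.83 at d36. Lrg1, a secreted glycoprotein of the acute phase, was the rise at d15 (2.95 ± 0.48, limma adjusted p = 0.0106), and it fell at d22 against d15 (-1.99 ± 0.48, adjusted p = 0.0352), as did the kinase gene Pim3 (-1.07 ± 0.24, adjusted p = 0.0268). Hif1a, the oxygen-regulated transcription factor, rose at d22 (0.98 ± 0.13, adjusted p = 0.000385) and at d36 (1.54 ± 0.13, adjusted p = 3.88e-06). At d36 the growth regulator Myc (4.84 ± 0.75, adjusted p = 0.000361) and the survival gene Mcl1 (0.62 ± 0.12, adjusted p = 0.00190) rose too. Myc was at 230, 136 and 108 RPKM in d36 replicates 1, 7 and 8. In replicate 9, where Rhox5 was also lowest, it was at 4.68 RPKM, within the d22 range of 2.65 to 6.43. The 1 gene that fell was Lbp, which binds bacterial lipopolysaccharide (-0.44 ± 0.15, adjusted p = 0.0465). Several of these genes are also expressed by leukocytes and tumour cells, whose markers stood higher at d36, with the limit of the filter given above. The part of leukocyte or tumour RNA in the values of this list was not tested.

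**Figure D4:**
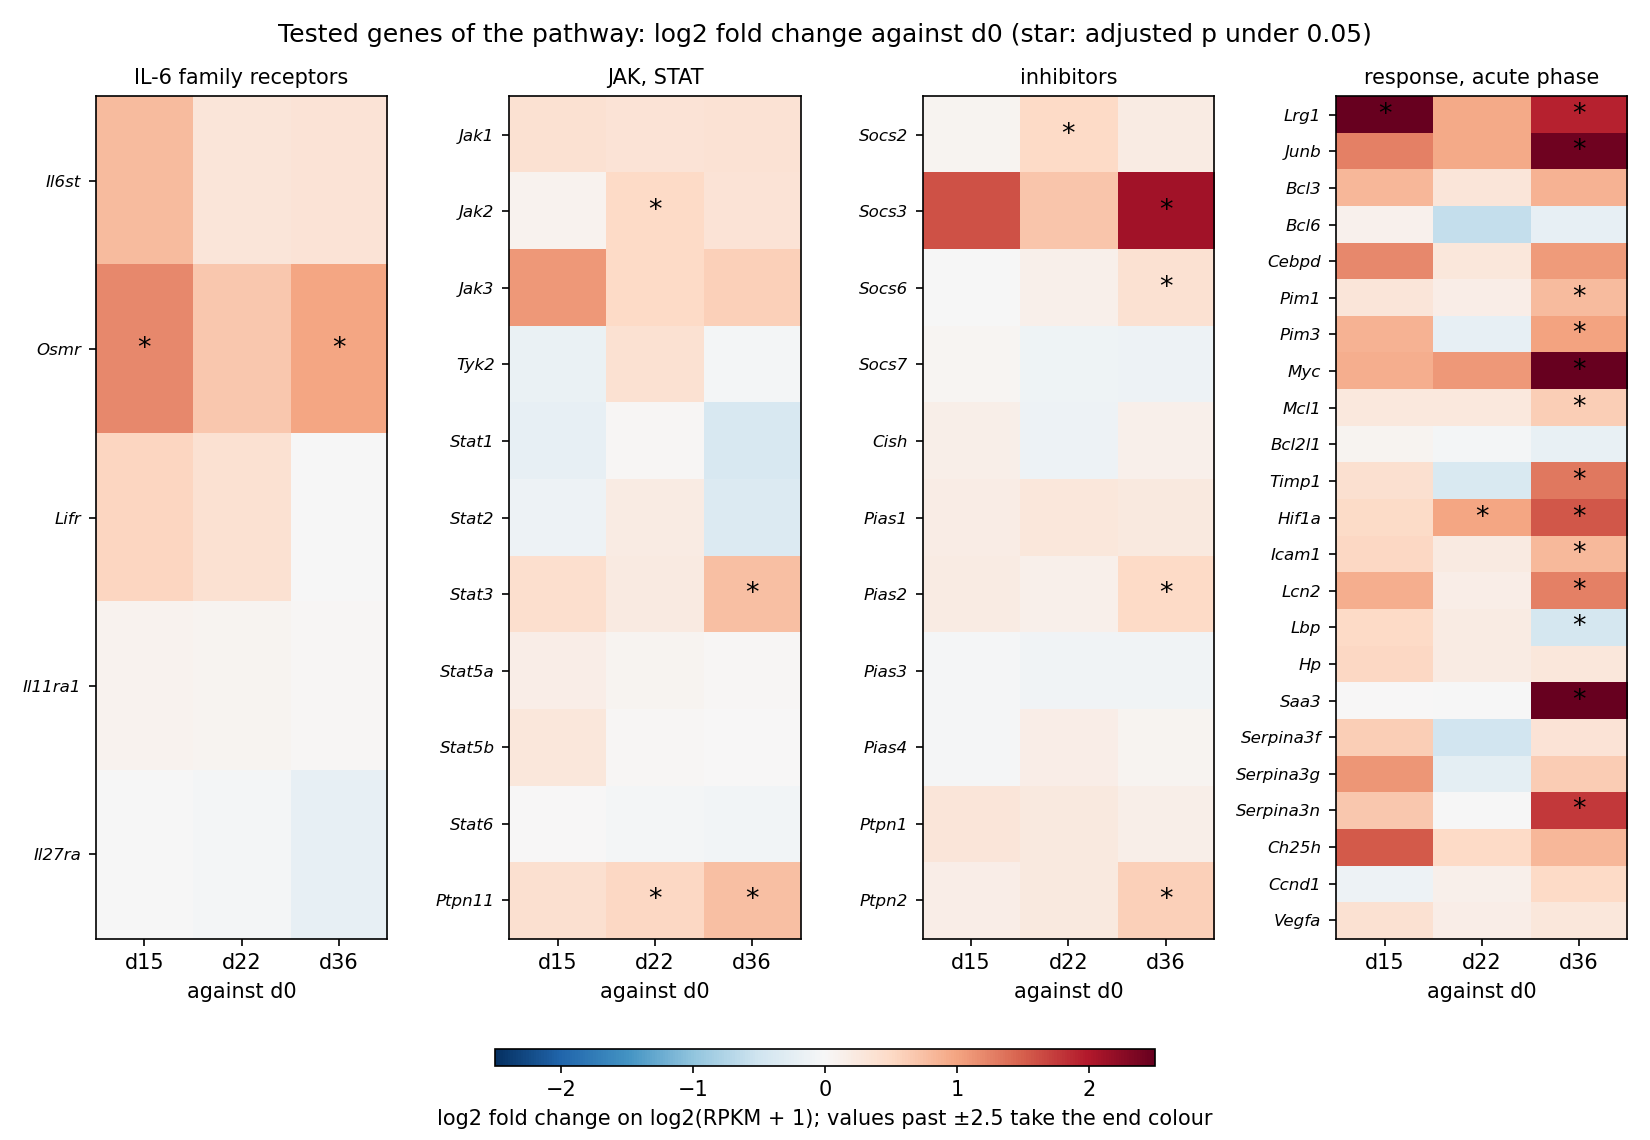
Colour gives the log2 fold change against d0 of every tested gene of 4 pathway lists (rows) at d15, d22 and d36 (columns). Stars mark an adjusted p under 0.05 in limma. The response list has 1 star at d15 (Lrg1), 1 at d22 (Hif1a) and 13 at d36, of which Lbp is lower.

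In the neighbouring interleukin pathways, 1 of 4 tested genes of the IL-4 and IL-13 list and 1 of 10 of the IL-1 list were called at d15 against d0, where 1.18% of all entries were. Of the 4 tested genes of the IL-4 and IL-13 list, Il4ra rose at d15 and Il33, an alarmin cytokine, rose at d36 (2.11 ± 0.48, limma adjusted p = 0.00481). The chains that pair with Il4ra were not called: Il2rg, the common gamma chain, stood at 114 ± 12.5 RPKM at d0 and at 116, 119.7 and 120.3 at d15, d22 and d36, and Il13ra1 at 4.87 ± 1.48 at d0 and at 6.57, 6.34 and 6.84. Among 10 tested genes of the IL-1 list, Il1a, an IL-1 ligand, was lower at d15 (-0.93 ± 0.19, adjusted p = 0.0287) and at d22 (-0.90 ± 0.19, adjusted p = 0.00538) than at d0. Its receptor gene Il1r1 rose at d22 and d36. Sigirr, which dampens IL-1 receptor signalling, fell at d36 (-0.62 ± 0.13, adjusted p = 0.00254).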

How the data were processed

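RNA-seq of sorted lung endothelial cells was measured in 16 libraries, 4 at each time point. The authors deposited RPKM values per entry and library, per the file headers, together with adjusted p-values and log2 fold changes of their own comparisons, per the file headers. Build mm10, STAR and DESeq2 are named in the submitters' processing notes. Versions, roles, annotation, gene lengths and filters are not given in the sources used here. RNA was amplified before sequencing, per the labels' protocols.

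From the RPKM, log2(RPKM + 1) was computed for entries that reached 1 RPKM in 4 or more libraries and tested with limma 3.58.1 (moderated test with an intensity trend, R 4.3.3), in 1 fit of 4 groups and 6 contrasts. Benjamini-Hochberg adjustment ran over all tested entries, with a two-sided threshold of 0.05. Fold changes on this scale understate the change of low genes. The fit was tested on simulated data. Il6ra and low ligands were compared with exact permutation tests. Replicates are independent animals or samples as the design text describes them. Depth was estimated from steps in low RPKM values and is approximate. The 9 genes, the pathway lists and the marker lists were chosen with earlier results of these data known. From each list, up to 4 called genes with the smallest p per comparison are named, and Lbp, which falls outside that rule, was named after its values were seen. Likeness names the 3 entries with the highest r. Jak1, Il11ra1, Il27ra, Il2rg and Il13ra1 are named by their role in the pathway. Other pseudocounts, filters, scalings, fits of only the groups compared, array weights, a replicate block, a length and GC trend, and leaving out each library were tried. Promoter sequences and motif counts came from RefSeq (GRCm38.p6), gene positions from GENCODE (GRCm38). Python 3.11.15 was used for tables, motifs and figures.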

Additional observations from a re-analysis of the deposited data

Results flagged for a closer look

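In 5 of the 35 groups of 4 libraries examined, 1 library lay apart from the other 3, by a gap that took more of the group's range than Dixon's 95% critical value. Chance flags about 1 in 20 groups. Socs3 in d36 replicate 7 was 143 RPKM, with 3.66 to 18.8 RPKM in the other d36 libraries. Il6st in d15 replicate 5 was 25.0 RPKM, with 15.2 to 16.8 in the others. Osmr in d0 replicate 1 was 10.9 RPKM, with 5.63 to 6.26 in the others. Saa3 was 0.0353 RPKM in d0 replicate 2 and 0.0403 in d15 replicate 3, while the other libraries of both groups were listed at 0. With 3 values at 0 such a gap always takes the whole range, so these 2 flags are fixed by the floor and do not count against the chance rate.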

How the results depend on the processing

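The number of genes called was compared with 2 at d15, 1 at d22 and 5 at d36 against d0, and with 1 at d22 against d15, 1 at d36 against d15 and 2 at d36 against d22. Pseudocounts of 0.1 and 0.5 RPKM moved none of these counts. Without a filter, 0 were called at d15 against d0 and 0 at d22 against d15. With at least 5 RPKM in 4 libraries, which leaves out Saa3, 0 were called at d36 against d15 and 1 at d36 against d22. Upper quartile scaling called 2 at d36 against d15 and 1 at d36 against d22. Quantile normalization called 0 at d22 against d15 and 2 at d36 against d15. Fits of only the groups compared called 5 at d15, 3 at d22 and 4 at d36 against d0, 2 at d22 against d15 and 1 at d36 against d22. Array weights called 7 at d15, 3 at d22 and 7 at d36 against d0, 3 at d36 against d15 and 6 at d36 against d22. With length and GC trends removed, 0 were called at d22 against d0, 0 at d22 against d15, 2 at d36 against d15 and 1 at d36 against d22. The cause of these moves was not tested.

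Leaving out 1 library gave 0 to 2 calls at d15, 0 to 2 at d22 and 3 to 6 at d36 against d0, 0 to 0 at d22 against d15, 0 to 2 at d36 against d15 and 1 to 6 at d36 against d22. Saa3 is not tested when a d36 library is left out. With the replicate block, 3 genes were called at d36 against d0 (Osmr, Il1r1 and Saa3), 3 at d22 against d15 (Il6st, Osmr and Il4ra) and 1 at d36 against d22 (Saa3). Stat3 was then 0.47 at d36 against d0 (limma adjusted p = 0.246). Same-numbered libraries had r of -0.11 to 0.22 over 9 pairs, within the -0.36 to 0.35 of the 87 other pairs. So few pairs cannot exclude a pairing or a batch behind the numbers, and the labels used here state neither.

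Directions turned only in uncalled differences. For Il6st at d36 against d22 (0.04) the log2 value was -0.10 with upper quartile scaling, -0.12 with quantile normalization, -0.051 with length and GC trends removed, and between -0.10 and 0.30 with 1 library left out (-0.10 without d36 replicate 1 and -0.09 without replicate 7). For Il1r1 at d22 against d15 (0.02) it was -0.049 with quantile normalization, -0.035 with the replicate block, -0.10 with length and GC trends removed, and between -0.062 and 0.12 with 1 library left out. For Il4ra at d22 against d0 (0.08) it was -0.0067 with the replicate block and between -0.021 and 0.23 with 1 library left out. For Lifr at d36 against d0 (-0.01) it was 0.10 with array weights, 0.15 with the replicate block, and between -0.13 and 0.19 with 1 library left out. For Osmr at d36 against d15 (-0.20) it was 0.042 with array weights and between -0.37 and 0.072 with 1 library left out. Socs3 at d36 against d15 (0.51) lay between -0.41 (without d36 replicate 7) and 1.24 (without replicate 9). Upper quartile scaling moved the median of all entries at d36 against d0 to -0.06, against 0.04 unscaled. The number of libraries, 4 a group, limits the precision of each difference.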
